A study of Rattus norvegicus with 27 samples.

Results

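The Nr4a genes encode 3 orphan nuclear receptors, Nr4a1 (also called Nur77 or NGFI-B), Nr4a2 (Nurr1) and Nr4a3 (NOR-1). They were taken as the probe sets whose only gene symbol in the platform annotation is Nr4a1, Nr4a2 or Nr4a3, which gave 1 probe set for each, 3 of the 18166 genes that the annotation names in this way. All 3 passed the filter on dim genes, which 12716 genes passed. The family was chosen by the measured fall of Nr4a1 and Nr4a3 in CA1 total RNA after ischemia, and the higher NIC level of Nr4a1 in CA1 than in CA3 total RNA was known too. Every value that uses CA1 total RNA is therefore given as a description without a test, and tests are given for CA1 polysome RNA and for both fractions of CA3.

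RNA came from the hippocampus of male Long Evans rats. In the 8R groups the brain was made fully ischemic for 10 min at normal body temperature, by closing the carotid arteries and lowering mean arterial pressure to 45 mm Hg, and was then reperfused for 8 h. In the NIC groups, the non-ischemic controls, rats had a sham operation. CA1 and CA3 were dissected, and each replicate pooled a region of 5 rats. Pyramidal neurons of CA1 typically die some days after such an insult, while most of those in CA3 survive. After removal of mitochondria, 20% of each pool's supernatant gave total RNA and the rest was spun onto a 20% sucrose pad to pellet polysomes, so the polysome value does not separate transcripts by the number of ribosomes they carry. There were 27 Affymetrix Rat Gene 2.0 arrays in 8 groups. The 8R groups had 4 arrays of pools 1 to 4 in CA1 total, CA3 total and CA3 polysome RNA, and 3 arrays in CA1 polysome RNA. The sample codes in the labels number these last as pools 1, 3 and 4, while their titles count them 1 to 3, and the codes were followed. Each of the 4 NIC groups had 3 arrays. The labels give no age, and the pools of different regions or conditions are not said to share rats.

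Nr4a proteins are transcription factors with a closed ligand pocket, so their activity follows how much of them a cell makes and how they are modified, not a classical hormone. Their genes are immediate early genes in neurons: calcium, cyclic AMP and growth factor signals switch them on within minutes through CREB with its CRTC coactivators, SRF and MEF2. As monomers they bind the NBRE, a DNA element of their own, and Nr4a1 and Nr4a2 also pair with RXR. In the hippocampus they are known for memory consolidation and for CREB-dependent survival of neurons after excitotoxic and oxidative stress.

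The promoters of Nr4a1 and Nr4a2, 2 of the 3 genes, were in the RefSeq table of build GRCr8, each as 250 bases before and 50 bases after the gene's start. They are shown because both genes are known CREB targets. All 3 Nr4a genes were called lower in CA1 polysome RNA, and any part of CREB in this was not tested. Nr4a1 is read from the plus strand of chr7:134259888-134260187 and Nr4a2 from the minus strand of chr3:62104838-62105137. Both run 5′ to 3′, with capitals where the letters of the CREB core site, TGACG, or its reverse complement CGTCA, occur.
Nr4a1: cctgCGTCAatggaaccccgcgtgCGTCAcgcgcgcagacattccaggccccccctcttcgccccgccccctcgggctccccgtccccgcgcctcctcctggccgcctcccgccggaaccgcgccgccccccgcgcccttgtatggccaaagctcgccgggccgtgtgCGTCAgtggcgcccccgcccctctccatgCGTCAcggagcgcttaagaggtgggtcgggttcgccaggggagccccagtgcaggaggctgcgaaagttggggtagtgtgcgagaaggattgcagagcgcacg
Nr4a2: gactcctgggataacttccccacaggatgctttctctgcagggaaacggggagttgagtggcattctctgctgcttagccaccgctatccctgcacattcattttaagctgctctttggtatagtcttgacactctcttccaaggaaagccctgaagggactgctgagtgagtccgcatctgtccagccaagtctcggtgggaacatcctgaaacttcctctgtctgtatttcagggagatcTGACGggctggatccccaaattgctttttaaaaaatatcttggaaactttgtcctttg
The Nr4a1 window holds the core site 4 times, each on the opposite strand to the gene, at -246 to -242, -226 to -222, -82 to -78 and -53 to -49 from the start. The Nr4a2 window holds it 1 time, on the gene's strand, at -8 to -4. Among 33469 promoters of the same length, 21.2% held at least 1 such match on either strand. Neither window held the full CREB site TGACGTCA (in 1.83% of promoters and an extension of the core site), the NBRE AAAGGTCA (1.43%), a CArG box (1.64%), a MEF2 site (3.29%) or TATAAA (14.2%). The Nr4a1 window was 72.3% G and C and the Nr4a2 window 48.7%, beside a median of 51.7% over all promoters. These are matches of letters in short windows, and sites farther from the start were not looked at.

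Values are probe set intensities on a linear scale, and group values are means ± SD. A probe set's intensity depends on its own probes, so levels are compared between groups for 1 gene and never between genes. Median intensities of the arrays were 25.6 to 38.1, no 2 arrays held identical values, and arrays of a group correlated at 0.946 or more. Within groups, the median SD of a gene was 0.149 to 0.173 log2 in 8R and 0.0985 to 0.109 log2 in NIC. The 4 arrays of 8R pool 4 deviated from their group means together, with correlations of 0.54 to 0.78 between them, so results that move without that pool are given both ways. Tests used limma on log2(intensity + 16) in 1 fit of all arrays, a gene was called at a Benjamini-Hochberg adjusted p under 0.05 over the 12716 genes, and log2 differences are followed by their SE or 95% interval. The replicates are pools of different rats, so the spread is between pools. In such bulk tissue, fewer cells of a type and less RNA per cell cannot be told apart.

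In CA1 total RNA, each of the 3 receptors stood lower after ischemia, on every array. Nr4a1 had intensities of 199, 185, 241 and 287 in 8R pools 1 to 4, against 404, 429 and 491 in NIC pools 1 to 3. Nr4a2 had 207, 183, 235 and 219 in 8R, against 379, 344 and 411 in NIC. Nr4a3 had 156, 136, 147 and 137 in 8R, against 359, 361 and 368 in NIC. The groups did not overlap for any of the 3 genes, and the widest gap was that of Nr4a3, whose arrays lay close together in both groups. The differences, 8R minus NIC, were -0.92 for Nr4a1, -0.80 for Nr4a2 and -1.25 for Nr4a3 on the log2 scale. These are 1.89-fold, 1.74-fold and 2.37-fold lower levels. In this contrast 6.15% of all genes tested were called lower and 20.1% higher, and nothing is read from the members' position in it, since it chose them.

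**Figure D1:**
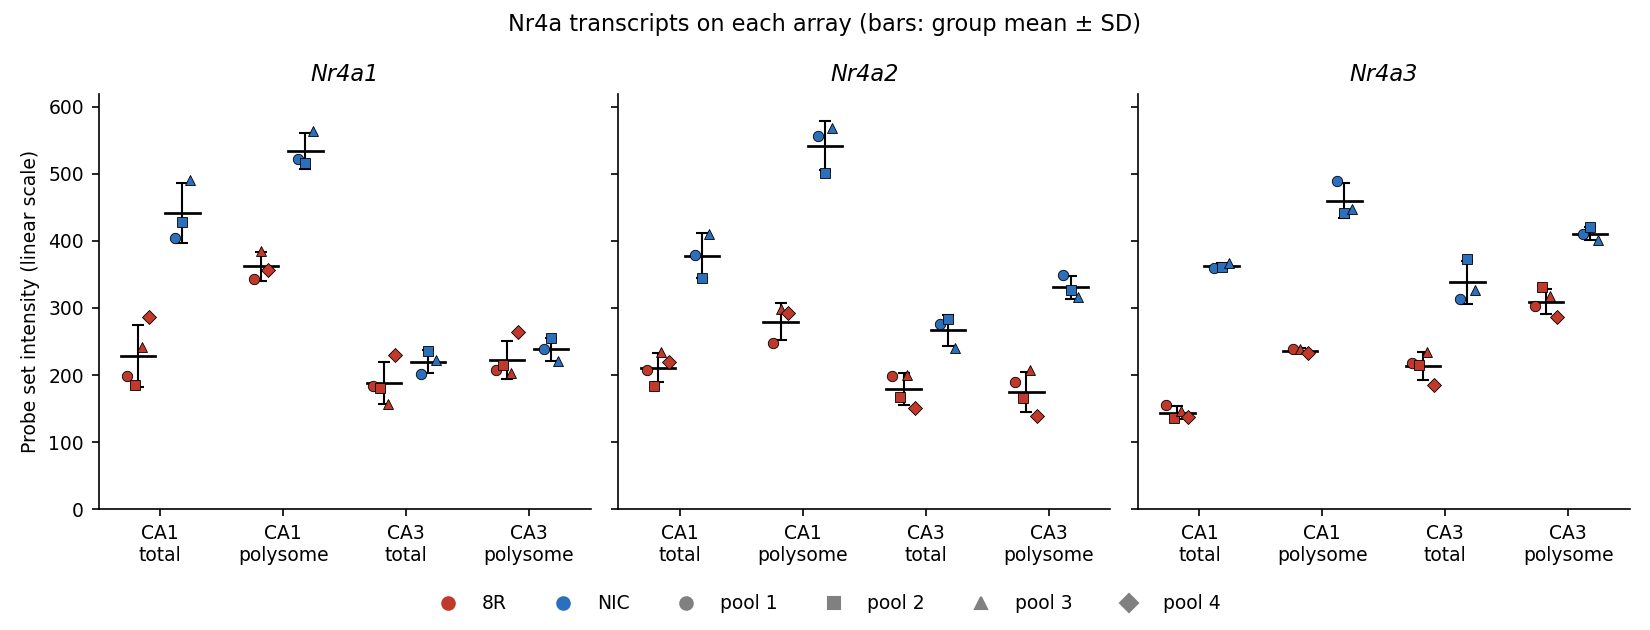
Intensity (linear scale, vertical axis) of Nr4a1, Nr4a2 and Nr4a3 on each of the 27 arrays, by region and RNA fraction, with 8R in red left of NIC in blue. Symbols mark the pool, long bars the group mean and short bars 1 SD; in both CA1 fractions all 8R arrays of the 3 genes lie below all NIC arrays, and in CA3 the Nr4a1 groups overlap.

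The same fall was present in CA1 polysome RNA, which comes from other arrays of the same pools. Total and polysome arrays of an 8R CA1 pool deviated together, with correlations of 0.33, 0.41 and 0.66. The tests here are therefore not independent of the choice of the members. Nr4a1 had 343, 386 and 357 in 8R pools 1, 3 and 4, against 522, 516 and 565 in NIC. Nr4a2 had 248, 299 and 292 in 8R, against 557, 501 and 569 in NIC. Nr4a3 had 238, 239 and 232 in 8R, against 490.0, 442 and 447 in NIC. No 8R array reached the lowest NIC array of any of the 3 genes. Nr4a2 fell by 0.92 ± 0.13 log2 (SE, a 1.89-fold lower level, limma adjusted p = 1.88e-05), and Nr4a3 fell by 0.91 ± 0.09 log2 (1.88-fold lower, adjusted p = 1.99e-07). Nr4a1 fell by 0.54 ± 0.13 log2 (1.46-fold lower, adjusted p = 0.0104). All 3 were called lower, where 3.46% of the genes tested were called lower and 4.87% higher. Among the 440 genes called lower, ordered by the size of the fall, Nr4a2 was number 3, Nr4a3 number 5 and Nr4a1 number 177. The median change of all genes was 0.01. The call of Nr4a1 was lost without NIC CA1 polysome replicate 3 (adjusted p = 0.0506), without 8R CA1 polysome pool 1 (adjusted p = 0.0524) and after quantile normalization (log2 difference -0.45, adjusted p = 0.0677).

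In CA3 total RNA, Nr4a2 and Nr4a3 fell and Nr4a1 did not pass the test. Nr4a2 had 199, 167, 200.5 and 150.4 in 8R pools 1 to 4, against 276, 284 and 241 in NIC. Nr4a3 had 218, 215, 234 and 184 in 8R, against 313, 374 and 327 in NIC. The groups of both genes were apart on every array. The fall was 0.54 ± 0.12 log2 for Nr4a2 (1.45-fold lower, adjusted p = 0.00213) and 0.63 ± 0.09 log2 for Nr4a3 (1.55-fold lower, adjusted p = 1.98e-05). Called lower were thus 2 of the 3 genes, where 1.34% of the genes tested were called lower and 14.2% higher, with a median change of all genes of 0.09. Nr4a3 was number 16 and Nr4a2 number 36 among the 170 genes called lower.

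Nr4a1 in CA3 total RNA had 184, 181, 157 and 231 in 8R pools 1 to 4, against 202, 236 and 222 in NIC. The 3 arrays of 8R pools 1 to 3 lay below every NIC array, and the array of pool 4 lay above 2 of the 3. The difference was -0.22 log2, with a 95% interval of -0.47 to 0.04 (adjusted p = 0.251). Without all 4 arrays of pool 4, Nr4a1 was lower by the test, with a difference of -0.31 (adjusted p = 0.0103), and array weights gave -0.27 (adjusted p = 0.0195). Leaving out the single array of pool 4 in CA3 total RNA also gave -0.31 but no call, and with any 1 array left out the lowest adjusted p was 0.0629.

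In CA3 polysome RNA, the 3 receptors came apart. Nr4a2 had 189, 166, 207 and 138 in 8R pools 1 to 4, against 349.6, 327 and 316 in NIC, and it fell by 0.87 ± 0.12 log2 (1.83-fold lower, adjusted p = 4.01e-05). Nr4a3 had 303, 331, 317 and 287 in 8R, against 411, 421 and 402 in NIC, and it fell by 0.39 ± 0.09 log2 (1.31-fold lower, adjusted p = 0.0156). Nr4a1 had 207, 214, 203 and 264 in 8R, against 238, 255 and 221 in NIC. The groups of Nr4a2 and Nr4a3 were apart, while those of Nr4a1 overlapped on both sides, pool 4 again being the highest 8R array. The Nr4a1 difference was -0.10, with a 95% interval of -0.35 to 0.16 (adjusted p = 0.700). The interval of Nr4a1 in CA1 polysome RNA, -0.81 to -0.27, overlapped this interval. Such overlap does not test a difference, and the regions are compared by an interaction below. Lower calls were rare in this comparison, at 0.275% of the genes tested, or 35 genes, and 2.38% were called higher. Of those 35, Nr4a2 had the fall numbered 2 by size and Nr4a3 the one numbered 28. The Nr4a3 call was lost without any 1 of the 3 NIC CA3 polysome replicates, without 8R CA3 polysome pool 4, or with only these groups in the fit, with adjusted p-values of 0.0503, 0.0653, 0.0522, 0.0538 and 0.0788 in that order. Its difference stayed between -0.43 and -0.36 with any 1 array left out.

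**Figure D2:**
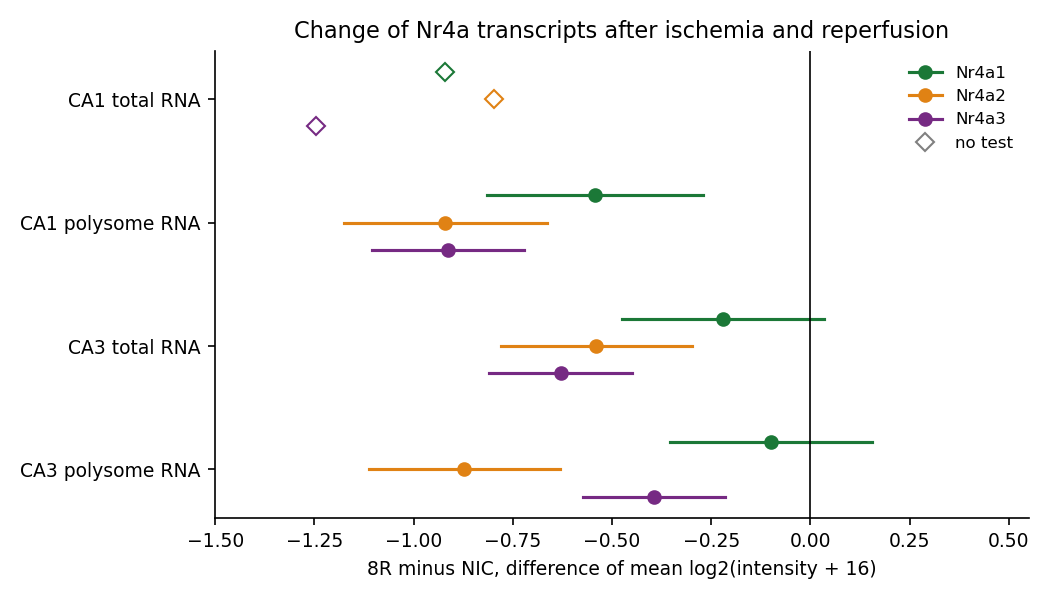
Difference between 8R and NIC in mean log2(intensity + 16), horizontal axis, for each gene, region and RNA fraction; lines are 95% intervals from limma, and open diamonds are the CA1 total RNA differences, given without a test. The intervals of Nr4a2 and Nr4a3 lie below 0 in all 3 tested comparisons, and those of Nr4a1 lie below 0 only in CA1 polysome RNA.

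The size of the fall differed among the 3 genes from group to group. In CA1 polysome RNA the change of Nr4a1 was 0.38 log2 less negative than that of Nr4a2 and 0.37 less negative than that of Nr4a3, and the log2 gaps of the 8R arrays between the genes did not overlap those of the NIC arrays. Nr4a2 and Nr4a3 had nearly the same change there. In CA3 polysome RNA the change of Nr4a2 was 0.77 log2 more negative than that of Nr4a1 and 0.48 more negative than that of Nr4a3, without overlap of the arrays in either case. In CA3 total RNA the gaps of all 3 pairs of genes overlapped between 8R and NIC. In CA1 total RNA, which chose the members, only the gap between Nr4a2 and Nr4a3 (0.45) did not overlap. These gaps between genes carry no test.

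Whether the fall in polysome RNA was larger in CA1 than in CA3 was tested as an interaction. The CA1 change minus the CA3 change was -0.52 for Nr4a3, with a 95% interval of -0.78 to -0.26, an unadjusted p of 0.000366 and a limma adjusted p of 0.465. For Nr4a1 it was -0.44 (-0.82 to -0.07, unadjusted p = 0.0218, adjusted p = 0.854). For Nr4a2 it was -0.05 (-0.40 to 0.30, unadjusted p = 0.782, adjusted p = 0.979), and its sign turned with 8R CA1 polysome pool 1 left out (0.032) or 8R CA3 polysome pool 3 left out (0.030). None of the 3 was called over all genes, where 0.0157% of the genes tested, or 2 genes, were. With the pool number within each condition as a fixed replicate block, the Nr4a3 difference of -0.52 was called (limma adjusted p = 0.0375). Same-numbered arrays of CA1 and CA3 deviated together in all 7 pairs of 8R (correlations of 0.12 to 0.78) and in 0 of 6 pairs of NIC (none over 0.1), and the labels do not say that such pools share rats. In total RNA the same difference of changes, given as a description, was -0.70 for Nr4a1, -0.26 for Nr4a2 and -0.62 for Nr4a3.

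Across all 8 groups, Nr4a1 was highest in NIC CA1. Its mean was 534 ± 26.5 in NIC CA1 polysome RNA, 441 ± 44.9 in NIC CA1 total RNA and 362 ± 21.7 in 8R CA1 polysome RNA (n = 3 each), and these 3 groups overlapped neither each other nor any other. The other 5 groups had means of 188 to 238, in the order NIC CA3 polysome, 8R CA1 total, 8R CA3 polysome, NIC CA3 total and 8R CA3 total, and each overlapped its neighbours. After ischemia, Nr4a1 in CA1 total RNA (228 ± 46.2, n = 4) thus overlapped all 4 groups of CA3.

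Nr4a2 was highest in NIC CA1 polysome RNA (542 ± 36.2, n = 3), apart from every other group. NIC CA1 total RNA (378 ± 33.2) and NIC CA3 polysome RNA (331 ± 17.3, n = 3 each) came next and overlapped. The next pair was 8R CA1 polysome RNA (279.5 ± 27.9) and NIC CA3 total RNA (267 ± 22.8, n = 3 each), which overlapped and lay apart from the groups above and below. The 3 lowest groups were 8R CA1 total RNA (211 ± 21.8), 8R CA3 total RNA (179 ± 24.4) and 8R CA3 polysome RNA (175 ± 29.6, n = 4 each), which overlapped. In CA3 after ischemia, the polysome and total levels of Nr4a2 overlapped.

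Nr4a3 was highest in NIC CA1 polysome RNA (459.8 ± 26.3) and then in NIC CA3 polysome RNA (411 ± 9.61, n = 3 each), both apart from the rest. NIC CA1 total RNA (362 ± 4.47, n = 3) overlapped NIC CA3 total RNA (338 ± 31.7, n = 3), which in turn overlapped 8R CA3 polysome RNA (309 ± 18.8, n = 4). Below these, 8R CA1 polysome RNA (236 ± 3.55, n = 3) and 8R CA3 total RNA (213 ± 20.8, n = 4) overlapped. The lowest group was 8R CA1 total RNA (144 ± 9.48, n = 4), apart from all others. Nr4a3 in NIC differed little between regions, unlike Nr4a1, whose NIC levels in CA1 were about 1.93-fold those of CA3 in total RNA.

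Between regions, polysome RNA allowed a test. In NIC, Nr4a1 was higher in CA1 than in CA3 by 1.11 ± 0.13 log2 (SE, limma adjusted p = 1.00e-06) and Nr4a2 by 0.69 ± 0.13 log2 (adjusted p = 0.000302). Nr4a3 was higher in CA1 on every array, by 0.15, but did not pass the test (95% interval -0.04 to 0.35, adjusted p = 0.202). Called higher were 2 of the 3 genes, where 27.7% of the genes tested were called higher and 0.731% lower. The CA1 polysome arrays were brighter as a whole, with a median difference over all genes of 0.23. Relative to that shift Nr4a3 was not higher in CA1, and its difference was -0.061 after quantile normalization and -0.086 with each array centred on its median. Under the same scalings Nr4a1 remained higher in CA1 by 0.90 and 0.87, and Nr4a2 by 0.48 and 0.45, both called.

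After ischemia, Nr4a1 and Nr4a2 were still higher in CA1 polysome RNA than in CA3 polysome RNA, by 0.67 ± 0.12 log2 (adjusted p = 0.000283) and 0.64 ± 0.12 log2 (adjusted p = 0.000262). Nr4a3 was lower in CA1 than in CA3, by a difference of -0.36 ± 0.09 log2 (adjusted p = 0.00339), with all CA1 arrays below all CA3 arrays. In this comparison 24.1% of the genes tested were called higher in CA1 and 1.23% lower, with a median difference over all genes of 0.19, against which the Nr4a3 difference runs. With only these groups in the fit the Nr4a3 call was lost (adjusted p = 0.0788). In total RNA, as a description, CA1 minus CA3 was 0.25, 0.22 and -0.52 log2 in 8R for Nr4a1, Nr4a2 and Nr4a3, against 0.95, 0.48 and 0.10 in NIC. The 8R arrays of the 2 regions overlapped for Nr4a1 and Nr4a2 and were apart for Nr4a3.

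Region differences sit beside differences in the cells that were dissected. In NIC polysome RNA 27.7% of all genes were called higher in CA1 and 0.731% lower, with a median difference of 0.23. CA1 pyramidal markers were higher in NIC CA1 than in NIC CA3 polysome RNA for 9 of 10 genes, with Wfs1 at 2.22 log2 and Ccn3 at 1.67 and with a median of 1.13. Of 15 CA3 pyramidal markers 6 were lower, with Plagl1 at -2.21 and Vgll3 at -1.76, 1 was higher, Cdh24 at 0.41, and the median was -0.03. Myelin and oligodendrocyte markers were also higher in CA1, for 13 of 14 genes with a median of 0.79. Of 8 dentate granule cell markers 3 were called higher in NIC CA1 (median 0.38), a share not far from that of all genes. In 8R polysome RNA 6 of the 8 were called higher in CA1 (median 0.65). There 24.1% of all genes were called higher, with a median of 0.19. Astrocyte markers were higher in CA1 polysome RNA for 2 of 10 in NIC and for 6 of 10 in 8R. The part of any of these in the region differences of the Nr4a genes was not tested.

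The ratio of polysome to total intensity within a pool describes how much of a transcript was in the polysome pellet relative to other transcripts, since the same 1 ug of RNA was labelled for every array. For Nr4a1 in CA1, the ratio was 1.73, 1.60 and 1.24 in 8R pools 1, 3 and 4, against 1.29, 1.20 and 1.15 in NIC pools 1 to 3. For Nr4a2 in CA1 it was 1.20, 1.27 and 1.33 in 8R, against 1.47, 1.45 and 1.38 in NIC. For Nr4a3 in CA1 it was 1.53, 1.62 and 1.70 in 8R, against 1.37, 1.23 and 1.22 in NIC. The ratio of Nr4a3 was thus higher in 8R and that of Nr4a2 lower in 8R, in each case without overlap, and that of Nr4a1 overlapped through pool 4. These CA1 ratios use total RNA of CA1 and carry no test. From group means, which also hold 8R CA1 total pool 2 without a ratio of its own, the Nr4a2 change in CA1 was -0.12 log2. After quantile normalization that change of group means was 0.071, so its direction is not settled. The pool ratios themselves were not recomputed with that scaling.

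In CA3 the ratio of Nr4a2 was 0.952, 0.993, 1.03 and 0.920 in 8R pools 1 to 4, against 1.27, 1.15 and 1.31 in NIC. The ratio of Nr4a3 was 1.39, 1.54, 1.36 and 1.56 in 8R, against 1.31, 1.13 and 1.23 in NIC. The ratio of Nr4a1 was 1.12, 1.19, 1.29 and 1.15 in 8R, against 1.18, 1.08 and 0.997 in NIC. In 8R, Nr4a2 lay below, and Nr4a3 above, every NIC pool, and Nr4a1 overlapped. The change of the ratio after ischemia in limma was -0.33 ± 0.17 log2 for Nr4a2 (adjusted p = 0.252), 0.24 ± 0.12 for Nr4a3 (adjusted p = 0.275) and 0.12 ± 0.18 for Nr4a1 (adjusted p = 0.701). None of the 3 was called, and 0.165% of the genes tested were. This fit did not pair the fractions of a pool. Under 13 other settings, blocks by pool among them, none was called either. The lowest limma adjusted p was then 0.0809 for Nr4a2, 0.0594 for Nr4a3 and 0.455 for Nr4a1.

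Within each condition of CA3, polysome RNA was compared with total RNA directly. In 8R, Nr4a3 was higher in polysome RNA by 0.51 ± 0.08 log2 (adjusted p = 2.67e-05), where 7.71% of the genes tested were called higher. In NIC, Nr4a3 was higher by 0.27 ± 0.09 (adjusted p = 0.0225), where 21.5% were called higher. That NIC call was lost after quantile normalization (0.095, adjusted p = 0.309) and without NIC CA3 polysome replicate 1 or 2 or NIC CA3 total replicate 1 or 3, with adjusted p-values up to 0.105. Nr4a2 differed by -0.04 ± 0.11 in 8R (adjusted p = 0.875) and by 0.30 ± 0.13 in NIC (adjusted p = 0.0610). With the pool as a replicate block, since each pool's supernatant gave both fractions, the NIC difference of Nr4a2 was called (adjusted p = 0.0154 with a fixed block and 0.0215 with a random one). Nr4a1 differed by 0.23 ± 0.12 in 8R (adjusted p = 0.175) and by 0.11 ± 0.13 in NIC (adjusted p = 0.547). The fixed block also brought the 8R difference of Nr4a1 past the threshold (adjusted p = 0.0452), as did leaving out 8R CA3 total pool 4 (0.32 log2, adjusted p = 0.0497).

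**Figure D3:**
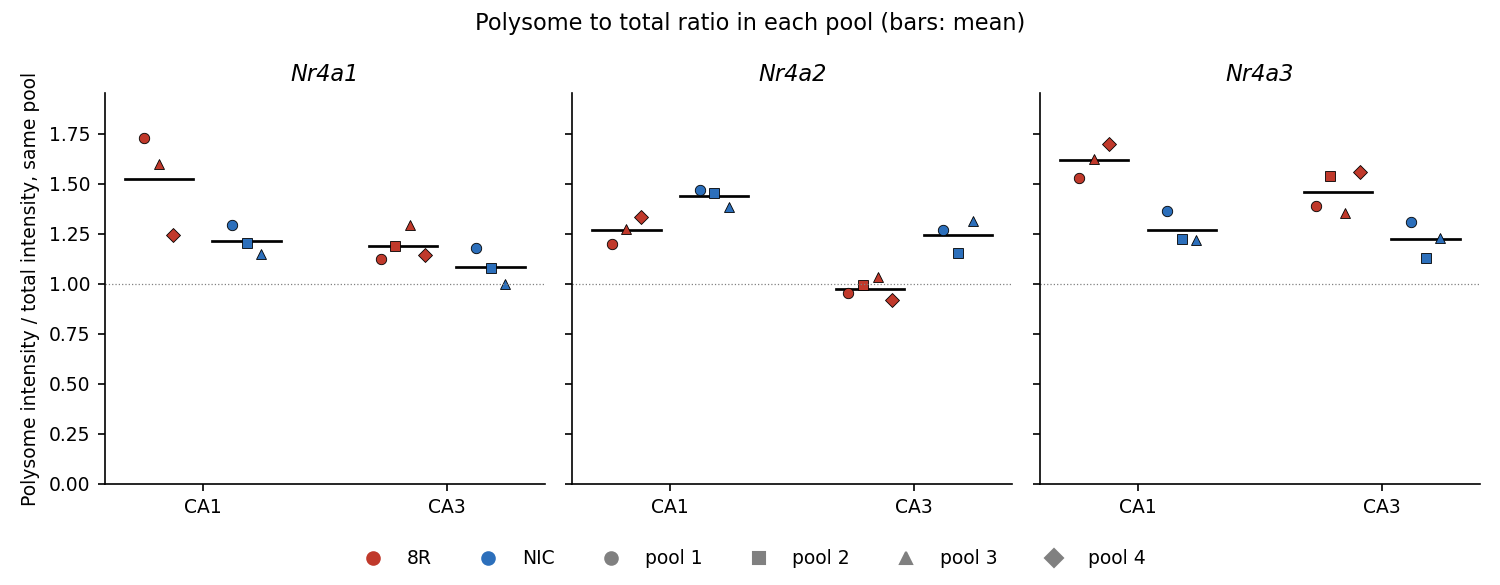
Ratio of polysome to total intensity of the same pool (linear scale, vertical axis) for Nr4a1, Nr4a2 and Nr4a3 in CA1 and CA3, with 8R in red left of NIC in blue, symbols for pools and bars for means. In both regions the 8R pools lie below the NIC pools for Nr4a2 and above them for Nr4a3, and the Nr4a1 pools overlap.

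Pool 4 of 8R moved the genes in different ways. Nr4a1 was at its highest 8R value in pool 4 in CA1 total, CA3 total and CA3 polysome RNA. Nr4a2 and Nr4a3 were at their lowest 8R value in pool 4 in both CA3 fractions. Without pool 4, Nr4a2 and Nr4a3 were called lower in the same 3 tested comparisons as with it. Over the deviations of all 27 arrays from their group means, Nr4a2 and Nr4a3 correlated at 0.51, Nr4a1 and Nr4a2 at -0.13, and Nr4a1 and Nr4a3 at -0.35, as a description of arrays that share pools. Over the values themselves the correlations were 0.80 between Nr4a1 and Nr4a2, 0.67 between Nr4a2 and Nr4a3 and 0.47 between Nr4a1 and Nr4a3.

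Of 45 other nuclear receptors listed, 27 were tested. In CA1 polysome RNA 1 rose and 1 fell, shares close to the 4.87% and 3.46% of all genes, with a median change of 0.08 beside 0.01 over all genes. In CA1 total RNA, the contrast that chose the members, 3 were called higher and 5 lower, beside 20.1% and 6.15% of all genes. The median there was -0.04 beside 0.04. Without pool 4, 8 were lower, with no share of all genes given for that setting. The riser was Rxra, by 0.46 log2 (limma adjusted p = 0.00612), which encodes the RXR that pairs with Nr4a1 and Nr4a2. The other RXR genes had changes of 0.17 for Rxrb (adjusted p = 0.427) and -0.34 for Rxrg (adjusted p = 0.179). The faller was Nr3c2, the mineralocorticoid receptor, by 0.72 log2 (adjusted p = 0.000485). In CA3 total RNA 2 rose, Rora by 0.57 and Rxra by 0.44, and 2 fell, Nr1d1 by 0.74 and Nr3c2 by 0.41, with a median of 0.00. Of all genes, 14.2% rose and 1.34% fell in that comparison. Rora and Nr1d1 encode an activator and a repressor of the circadian clock. Polysome RNA of CA3 had 1 fall, of Nr3c2 by 0.51 log2 (adjusted p = 0.0195), and no rise by limma (2 at an unadjusted p under 0.05), with a median of 0.01. There 0.275% of all genes fell and 2.38% rose.

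Nr3c2 was also the gene whose pattern over the 27 arrays was nearest to that of Nr4a2, with a Pearson r of 0.95 on the log2 scale. Its mean intensity was 265 in 8R against 424 in NIC in CA1 total RNA, 355 against 593 in CA1 polysome RNA, 227 against 303 in CA3 total RNA and 253 against 366 in CA3 polysome RNA. The next nearest to Nr4a2 were Arhgap44 (0.91), Arhgap32 (0.90), Kcnj3 (0.90) and Dact2 (0.88). Nearest to Nr4a1 were Egr1 (0.93), Prrt1 (0.90), Egr3 (0.90), Mef2d (0.90) and Abi1 (0.90), where Egr1 and Egr3 are immediate early zinc finger factors and Mef2d is a MEF2 factor. Nearest to Nr4a3 were Ctc1 (0.95), Cops7a (0.90), Pias3 (0.90), Pdk2 (0.89) and Prr36 (0.89). The 3 lists of 5 genes share no gene. Nr4a genes were left out of these lists beforehand, as were genes with locus or clone names. The correlations between the Nr4a genes themselves, 0.80, 0.67 and 0.47, were below every value listed here. The arrays share pools and groups, so these values describe likeness only.

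Genes that act upstream of the Nr4a promoters moved both ways. Of 31 listed regulators (CREB, CRTC, MEF2, SRF, calcium and cyclic AMP signalling), 26 were tested. In CA1 polysome RNA 4 fell and 2 rose, where 3.46% of all genes fell and 4.87% rose. The median change of the 26 was -0.11 beside 0.01 over all genes. The fallers were Camk4, a nuclear kinase that activates CREB, by 0.91 log2 (adjusted p = 0.00344), its activator Camkk2 by 0.86 (adjusted p = 0.0233), Prkaca, the catalytic subunit of protein kinase A, by 0.49 (adjusted p = 0.0161), and Camk2b by 0.44 (adjusted p = 0.0402). The risers were the kinases Sik2, by 0.77 (adjusted p = 0.00991), and Sik1, by 0.66 (adjusted p = 0.0206), which hold CRTC coactivators in the cytoplasm. Crtc1 itself had a change of -0.34 (adjusted p = 0.0797).

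In CA3 total RNA, 1 of these regulators fell, Mef2d by 0.52 log2 (adjusted p = 0.000531), and 1 rose, Crem by 0.63 (adjusted p = 0.000224), with a median of -0.01 beside 0.09 over all genes. Of all genes, 1.34% fell and 14.2% rose in CA3 total RNA. Crem gives rise to both activators and repressors at CREB sites. Crem also rose in CA3 polysome RNA, by 0.46 (adjusted p = 0.0212), as the only member of the list that passed (5 higher and 2 lower at an unadjusted p under 0.05), with a median of -0.09. In CA3 polysome RNA 2.38% of all genes rose and 0.275% fell. Without pool 4 the counts were 7 higher and 2 lower in CA3 total RNA, with no share of all genes given for that setting.

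The immediate early genes, the class to which the Nr4a genes belong, had more rises than falls. Of 35 listed without the Nr4a genes, 32 were tested, and fewer of them were called than not in each comparison. In CA1 polysome RNA 13 rose, where 4.87% of all genes did, and none fell by limma (1 at an unadjusted p under 0.05), with a median change of 0.31 beside 0.01 over all genes. The largest rises were those of the activity-dependent transcription factor Npas4 (2.56 log2), the synaptic protein gene Arc (1.33), the stress-induced factor Atf3 (1.31) and the phosphatase gene Dusp5 (1.03). Egr1, nearest to Nr4a1 over the arrays, had a change of -0.45 (adjusted p = 0.127), and Fos one of 0.21. Without pool 4, 11 rose and 1 fell, with no share of all genes given for that setting. In CA1 total RNA, the contrast that chose the members, 11 rose and 2 fell, which were Egr3 by 0.86 and Egr1 by 0.84, beside 20.1% and 6.15% of all genes.

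In CA3, 11 immediate early genes rose and 1, Egr3, fell by 0.47 log2 in total RNA (adjusted p = 0.0143), where 14.2% of all genes rose and 1.34% fell, with a median of 0.28 beside 0.09 over all genes. The largest rises were those of Atf3 (2.63), Npas4 (1.13), Jun (0.83) and Dusp6 (0.82). Polysome RNA of CA3 had 6 rises, where 2.38% of all genes rose, and no fall by limma (0 at an unadjusted p under 0.05), with a median of 0.29 beside 0.04, led by Atf3 (1.99), Fosl1 (0.91), Dusp5 (0.81) and Trib1 (0.66). After quantile normalization 2 rose there, with no share of all genes given for that setting. Crem and Sik1 belong to this list as well as to that of the regulators.

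**Figure D4:**
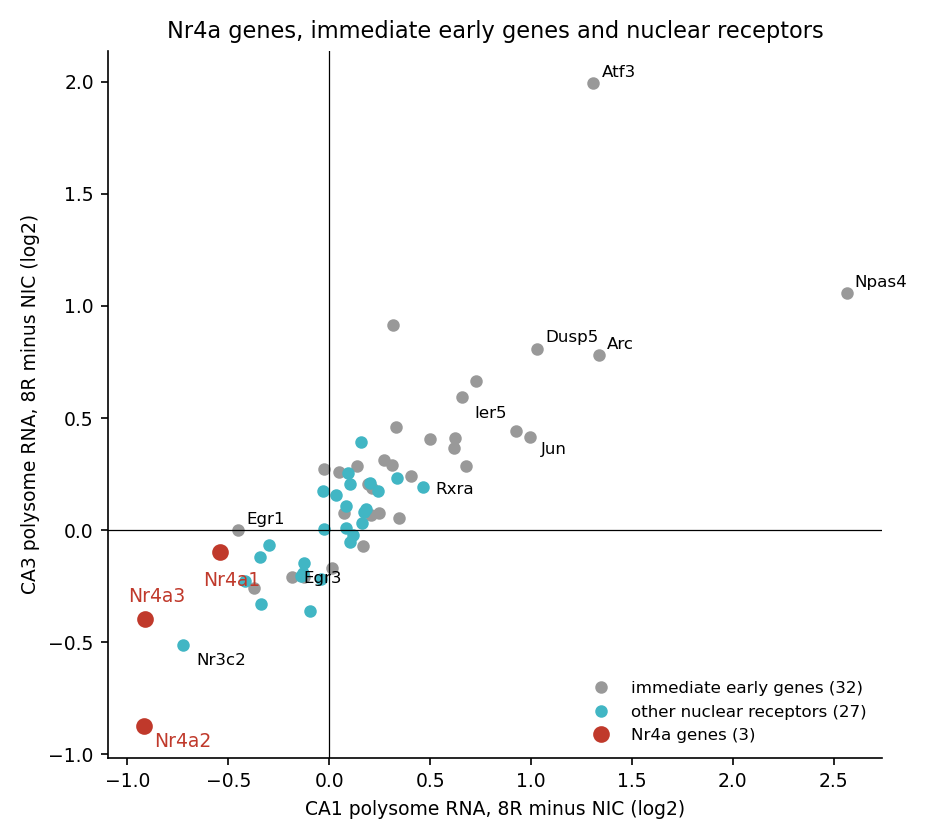
Change after ischemia in polysome RNA (8R minus NIC, log2) in CA1 (horizontal axis) and CA3 (vertical axis), for the 3 Nr4a genes in red, 32 immediate early genes in grey and 27 other nuclear receptors in blue. The Nr4a genes lie at the lower left, with Nr4a2 at -0.92 and -0.87, while Npas4 lies at 2.56 and 1.06.

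Genes that follow activity later, and endoplasmic reticulum chaperones, were set beside these. Of all genes, 4.87% rose and 3.46% fell in CA1 polysome RNA, 2.38% rose in CA3 polysome RNA and 14.2% rose in CA3 total RNA. Of 13 tested late genes 6 rose and 1 fell in CA1 polysome RNA (median 0.45), with Ptgs2 at 2.32 log2, Gadd45b at 1.54 and Rasgrp1 at -0.56, and the neurotrophin gene Bdnf had a change of 0.25 (adjusted p = 0.334). Ptgs2, by 1.27, and Gadd45b, by 0.92, were the 2 of the 13 that rose in CA3 polysome RNA (median 0.27). In CA3 total RNA 7 of the 13 rose (median 0.35). Of 14 tested chaperones, 1 rose in each region's polysome RNA, Hspa5, by 0.92 log2 in CA1 (list median 0.07) and 0.56 in CA3 (list median 0.14). In CA3 total RNA 12 of the 14 rose (median 0.51).

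Markers of cell types were measured beside the changes after ischemia. Of all genes, 6.15% were called lower in CA1 total, 3.46% in CA1 polysome, 1.34% in CA3 total and 0.275% in CA3 polysome RNA. CA1 pyramidal markers were lower for 1 of 10 in CA1 polysome RNA, and their summed intensity there was 2017 to 3157 in 8R against 2543 to 3082 in NIC. In CA3 none of the 10 was called by limma, with 1 lower in total RNA and 3 lower in polysome RNA at an unadjusted p under 0.05. CA3 pyramidal markers were lower for 3 of 15 in CA1 polysome RNA and for 1 of 15 in each CA3 fraction, and their sum in CA3 polysome RNA was 1919 to 2613 in 8R against 2387 to 2558 in NIC. The median change of the CA1 markers in CA1 polysome RNA was -0.27, with 5 of 10 lower and 0 higher at an unadjusted p under 0.05, and in CA1 total RNA 3 of 10 were called lower with a median of -0.23. Wfs1 alone gave 827 ± 259 of the CA1 sum in 8R and 894 ± 132 in NIC CA1 polysome RNA (n = 3 each). The sums of the other region's markers did not overlap. CA3 markers in CA1 polysome RNA had 1478 to 1537 in 8R against 1913 to 2016 in NIC. CA1 markers in CA3 polysome RNA had 840.1 to 1063 in 8R against 1075 to 1133 in NIC. Cpne4 alone gave a mean of 421 of the CA3 marker sum in 8R and 712 in NIC CA1 polysome RNA. Its mean in NIC CA3 polysome RNA was 624, below that in NIC CA1 polysome RNA.

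Markers of other cells are set beside the shares of all genes called higher, 4.87% in CA1 polysome RNA, 14.2% in CA3 total RNA and 2.38% in CA3 polysome RNA. Microglial markers were higher for 4 of 10 in CA1 polysome RNA, 3 in CA3 total RNA and 2 in CA3 polysome RNA. Their sum was 697 to 901 in 8R against 540.1 to 562 in NIC in CA1 polysome RNA, 612 to 688 against 434 to 536 in CA3 total RNA, and 552 to 736 against 458 to 486 in CA3 polysome RNA, without overlap. Of 10 astrocyte markers, 2 were higher in CA3 total RNA and 1 was higher in CA1 polysome RNA, and none was called by limma in CA3 polysome RNA (1 higher at an unadjusted p under 0.05). Oligodendrocyte markers were higher for 1 and lower for 2 of 14 in CA1 polysome RNA, and higher for 4 in CA3 total and 2 in CA3 polysome RNA. Of 13 interneuron markers, 2 were higher in CA3 total RNA and 1 was higher in CA1 polysome RNA. Summed intensities of astrocyte and of interneuron markers were also higher in 8R without overlap in all 3 comparisons. In CA1 polysome RNA these were 5526 to 6758 against 5428 to 5514, and 2890 to 3251 against 2529 to 2683. The oligodendrocyte sum was higher without overlap in CA3 total RNA (2786 to 3083 against 2254 to 2636). The endothelial and pericyte sum was narrowly so in CA1 polysome RNA (237.2 to 255 against 219 to 237.1). Dentate granule cell markers were higher for 1 of 8 in CA1 polysome RNA. In CA1 total RNA, where 20.1% of all genes were called higher, 3 of the 8 were. Their sum there was 971 to 1355 in 8R against 760 to 962 in NIC, without overlap. The lists of endothelial cells with pericytes (5 tested) and of choroid plexus, meninges and blood (4 tested) had no call by limma in CA1 polysome, CA3 total or CA3 polysome RNA. In each of these, 1 or 0 of either list passed an unadjusted p under 0.05. The part of any of these in the falls of the Nr4a genes was not tested.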

How the data were processed

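Per the labels, total and polysome RNA of rat hippocampal CA1 and CA3 was hybridised to single-colour Affymetrix Rat Gene 2.0 arrays, 27 in all. The deposited values are intensities, 1 per probe set and array, and their linear scale was read from the values. They were made with Affymetrix Expression Console and PLIER, per the submitters' processing notes, which name no version. How background was corrected and how arrays were scaled to each other is not given in the sources used here. Precision is limited by the number of arrays, 3 or 4 a group.

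Of 36685 probe sets, 18511 had 1 gene symbol in the platform annotation, 575 several and 17599 none. For each of 18166 genes the brightest probe set was used. Genes with a mean log2(intensity + 16) under the 30th percentile (5.39) were left out, and a fold change on this scale understates the change of dim genes. limma 3.58.1 in R 4.3.3 fitted a mean for each of 8 groups, with an intensity trend in the variance (19 residual and 10.1 prior degrees of freedom) and two-sided tests adjusted by Benjamini-Hochberg over 12716 genes. The procedure was tested on simulated data. Alternatives were other pseudocounts (1 and 64), scalings, filters, array weights, variance and probe set rules, the groups alone, replicate blocks, and leaving out pool 4 or each array. Shares of all genes called are those of the main fit.

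The members, the 15 gene lists and the tests were chosen with earlier results of these data known. Named genes were the members, the 5 nearest by Pearson r to each, and from each list up to 4 with the largest changes. Rxra, Rxrb, Rxrg, Crem, Sik1, Crtc1, Fos, Egr1, Arc, Npas4, Bdnf and Hspa5 were named in addition. The nearest genes were taken from tested genes other than the members, without locus or clone names.

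Total and polysome arrays of 1 pool are paired, since each supernatant was split into both per the series' design text. Their deviations from group means correlated at 0.28 to 0.77 in 7 pairs of 8R and at -0.04 to 0.22 in 6 pairs of NIC. Motifs were matched on both strands of RefSeq promoters (GRCr8).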

Additional observations from a re-analysis of the deposited data

How the results depend on the processing

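The falls of Nr4a2 and Nr4a3 in CA1 polysome RNA and CA3 total RNA, and that of Nr4a2 in CA3 polysome RNA, kept their direction and their call under all 13 other settings and with any 1 array left out. So did the higher polysome levels of Nr4a1 and Nr4a2 in CA1 than in CA3, in 8R (adjusted p up to 0.0225 and 0.0259) and in NIC (up to 0.000468 and 0.0391), and the higher polysome than total level of Nr4a3 in 8R CA3 (up to 0.00784). For the results that moved, the cause was not tested. Quantile normalization gave -1.401 for Nr4a3 in CA1 total RNA (-1.039 with a pseudocount of 64), took the CA1 polysome fall of Nr4a1 to -0.45 (adjusted p = 0.0677), and turned the NIC CA1 minus CA3 polysome difference of Nr4a3 to -0.061 (-0.086 with median centring). It also turned polysome minus total in NIC to -0.079 for Nr4a1 in CA3, and to -0.10 for Nr4a1 and -0.057 for Nr4a3 in CA1. The CA1 change of polysome minus total of Nr4a2, from group means, turned to 0.071 with it, and polysome minus total of Nr4a3 in NIC CA3 went to 0.095. The polysome minus total difference of Nr4a2 in 8R CA3 turned to 0.025 with median centring and 0.033 with array weights. In NIC CA3 that of Nr4a2 was called with median centring (0.40), array weights (0.33), and at 0.30 with the groups alone, without pool 4 and with either replicate block of the pool. With the groups alone, Nr4a3 was not called in CA3 polysome RNA (-0.39) or between regions in 8R polysome RNA (-0.36). Nr4a1 in CA3 total RNA was called with array weights (-0.27), a fixed replicate block (-0.29) and without pool 4 (-0.31). A fixed replicate block by pool number within each condition gave -0.52 for the Nr4a3 interaction in polysome RNA (limma adjusted p = 0.0375). With the same block, polysome minus total in 8R CA3 was 0.23 for Nr4a1. Same-numbered arrays of the 2 conditions, which share only a number, correlated in their deviations at -0.07 to 0.19.

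With 1 array left out, the Nr4a1 fall in CA1 polysome RNA ranged from -0.59 to -0.50, the Nr4a3 fall in CA3 polysome RNA from -0.43 to -0.36, and polysome minus total in NIC CA3 of Nr4a3 from 0.22 to 0.35. The Nr4a2 interaction ranged from -0.15 to 0.032 (0.030 without 8R CA3 polysome replicate 3), and polysome minus total in 8R CA3 from -0.11 to 0.063 for Nr4a2 (0.013 and 0.017 without 8R CA3 total replicate 1 or 3) and from 0.15 to 0.32 for Nr4a1. How arrays were scaled to each other is unknown, and small differences between fractions and regions moved with the scaling tried. With 1 NIC array left out, 2 remain in its group.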
